A study of Mus musculus with 12 samples.

Results

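Ribosomes are made in the nucleolus, where RNA polymerase I copies the ribosomal DNA into one long precursor RNA. Small nucleolar ribonucleoproteins (snoRNPs) modify that precursor, and assembly factors fold it, cut it and load it with ribosomal proteins to give the small and the large subunit. Cells adjust this costly programme to growth signals and amino acid supply. The transcription factor MYC is a known activator of many of its genes, and disturbed ribosome assembly is known to stabilise p53.

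The genes described here are 37 named genes of the nucleolus, the snoRNPs, RNA polymerase I and precursor processing, chosen by name from the 19439 entries of the deposited expression table. All 37 were found and all 37 passed the filter on low values, as did 11461 entries in all. They are the ribosomal RNA precursor entry Rn45s and 36 protein-coding genes. RNA was sequenced from mouse embryonic fibroblast (MEF) lines named 3T3, fibroblasts grown continuously in culture. One line was labelled wild type for p53 (WT) and the other p53 -/- (p53-null), with 1 line per genotype, so a difference between genotypes is a difference between these 2 lines. Both lines were grown in DMEM, a standard culture medium, holding 25 mM glucose and 2 mM L-glutamine. For the experiment each was given DMEM with 2 mM L-glutamine (complete) or DMEM lacking it (glutamine-free) over 18 h, which makes 4 groups of 3 libraries. The series title places the question in how p53 bears on adaptation to a lack of glutamine. Nothing in the labels ties the libraries of a group to cultures of their own, so each p-value weighs a difference against a spread that may be technical.

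Values are RPKM, read numbers divided by the length of the transcript and by the mapped reads of the library, which gives each gene's share of the sequenced RNA and not an amount per cell. Each log2 difference was taken after adding 1 to the RPKM, which understates the change of genes near 1 RPKM, and comes with its standard error (SE). Adjusted p-values are from limma with Benjamini-Hochberg adjustment over all 11461 tested genes, and a gene is called at an adjusted p under 0.05. In bulk RNA, fewer cells with a high level and less RNA per cell cannot be told apart. The RPKM of a library summed to 284426 to 319735, and no read totals were used, so the depth behind a value is unknown. Trp53, which encodes p53, averaged 58.5 ± 0.585 RPKM (SD, n = 3) in WT complete, 112 ± 2.22 in WT glutamine-free, 28.8 ± 0.873 in p53-null complete and 34.6 ± 0.614 RPKM in p53-null glutamine-free libraries. It was thus lower but still present under the p53-null label, and 1 value per gene does not show which part of the transcript was left. Of 9 fibroblast markers 8 averaged at least 1 RPKM in every group. Their summed level ranged from 3652 to 3672 RPKM in WT complete, 811 to 820 in WT glutamine-free, 2484 to 2523 in p53-null complete and 1429 to 1454 RPKM in p53-null glutamine-free libraries. Between lines the markers went opposite ways: in complete medium 7 of the 8 tested were called lower in p53-null cells, with S100a4 at 945 ± 14.1 RPKM in WT and 19.3 ± 1.74 RPKM in p53-null cells, and Vim was higher, at 760.0 ± 5.62 and 1730.1 ± 10.3 RPKM. Of 5 epithelial markers none averaged 1 RPKM in WT cells and 2 did in p53-null cells. The summed epithelial level was at most 0.252 RPKM in WT and 77.2 to 84.7 RPKM in p53-null libraries. Nearly all of the latter was 2 keratins, Krt18 (59.6 in complete and 75.5 RPKM in glutamine-free medium) and Krt19 (17.5 and 7.92 RPKM). Krt8 averaged 0.763 and 0.296 RPKM there, and Epcam 0.00384 and 0.00718 RPKM. Cdh1 was lower in p53-null than in WT cells, 0.0630 against 0.0965 RPKM in complete and 0.0187 against 0.0441 RPKM in glutamine-free medium. Blood markers summed to at most 7.52 RPKM and endothelial markers to at most 1.58 RPKM in any library. The part of these markers in the results below was not tested.

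Promoter sequences are shown for 3 example genes, with the canonical E-box that MYC binds, CACGTG (the same on both strands). The 3 were picked by hand and not by a rule. All 36 coding genes were called higher in WT cells on withdrawal, so a rise does not set the 3 apart. They do not stand for the share of genes with CACGTG, which is given after the sequences. Each run is the 250 bases before the transcription start, 5′ to 3′ on the gene's strand, from RefSeq on GRCm38.p6, with CACGTG in capitals. Rrn3 (chr16:13780449-13780698, plus strand) has 2 copies, Nop2 (chr6:125131633-125131882, plus strand) has 1, and Ddx21 (chr10:62602299-62602548, minus strand), whose transcript rose 5.97-fold in WT cells, has 0.
Rrn3: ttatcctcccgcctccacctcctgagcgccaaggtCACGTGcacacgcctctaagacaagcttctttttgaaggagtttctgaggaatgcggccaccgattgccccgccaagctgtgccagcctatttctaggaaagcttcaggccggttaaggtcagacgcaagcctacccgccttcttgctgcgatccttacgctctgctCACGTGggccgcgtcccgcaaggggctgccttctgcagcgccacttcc
Nop2: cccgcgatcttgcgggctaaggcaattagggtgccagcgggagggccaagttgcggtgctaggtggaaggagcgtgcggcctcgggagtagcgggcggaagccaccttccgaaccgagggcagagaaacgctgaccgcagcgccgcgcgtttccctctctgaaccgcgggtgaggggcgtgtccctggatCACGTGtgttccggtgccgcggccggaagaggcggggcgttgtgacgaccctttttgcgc
Ddx21: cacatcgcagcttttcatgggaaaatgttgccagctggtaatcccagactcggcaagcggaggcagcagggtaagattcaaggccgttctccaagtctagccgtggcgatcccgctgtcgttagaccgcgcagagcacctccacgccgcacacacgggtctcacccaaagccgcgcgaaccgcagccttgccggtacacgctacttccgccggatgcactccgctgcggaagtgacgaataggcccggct
RefSeq promoters were matched for 32 of the 37 genes. Of these, 6 (18.8%) held CACGTG in 300 bases from 250 before to 50 after a start, against 12.2% of 8849 tested genes. Counted by promoter, the share was 14.6% of the 41 promoters of these genes, 10.2% of the promoters of tested genes and 7.15% of all 32851 promoters. The 6 are Rrn3, Nop2, Nle1, Pes1, Utp20 and Wdr43. The cAMP response element, TGACGTCA, which reads the same on both strands, was in 0 of the 32 against 3.84% of tested genes. The TATA box core, TATAAA on either strand, was in 2 of the 32, Dkc1 and Pes1, against 8.22% of tested genes. A match of letters describes these windows only.

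Withdrawal of glutamine from WT cells raised all 36 protein-coding genes and lowered Rn45s. With quantile normalization Polr1c lost its rise, and Rn45s, whose value is then set by its rank, had a change of 0 (below). The median log2 change of the 37 was 1.46, against 0.01 over all tested genes. Of the 37, 36 were called higher, against a background of 46.0% of tested genes, and 1 lower, against 44.0%. At least 2-fold changes were called for 27 upward, against 9.75%, and for 0 downward, against 12.9%. No library overlapped for these 36: each glutamine-free WT library was above each complete WT library, as was so for 45.9% of tested genes. With 90.1% of all tested genes called in one direction or the other, a call alone sets no gene apart here. The mean log2 level of the 36 genes, set to the mean of the WT complete libraries, was 1.42, 1.42 and 1.43 in the 3 glutamine-free WT libraries. Their summed level was 1491 to 1502 RPKM in complete and 3482 to 3513 RPKM in glutamine-free WT libraries.

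In p53-null cells the same change of medium raised 33 of the 37, lowered 3 and left Polr1c uncalled. The background was 50.0% called higher and 32.0% lower, 82.0% in all. The 33 that rose also had no overlap between the 2 media, as did 50.8% of tested genes. The median log2 change was 0.43, against 0.08 over all tested genes, and none of the 37 rose or fell by 2-fold, against a background of 1.27% higher and 2.03% lower. With libraries centred on their median, 30 were called higher and 4 lower, and the split over all tested genes turned from 5732 higher and 3671 lower to 4525 higher and 4984 lower. The summed level of the 36 coding genes was 2324 to 2339 RPKM in complete and 2699 to 2737 RPKM in glutamine-free p53-null libraries.

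The difference between the 2 responses was called for 35 of the 37 genes, all with the smaller rise, or a fall, in p53-null cells. The background was 38.4% called in that direction and 46.4% in the other, 84.9% in all. For 20 of them the difference was at least 2-fold, against 5.58% of tested genes, and 0 differed by 2-fold in the other direction, against 9.98%. The median difference of the responses, p53-null minus WT, was -1.01 on the log2 scale, against 0.06 over all tested genes. The exceptions were Rn45s, at -0.02 ± 0.129 (SE, adjusted p = 0.91), and Polr1d, at 0.07 ± 0.037 (adjusted p = 0.094). The response of Polr1d was called larger in p53-null cells when either WT complete replicate 1 or WT glutamine-free replicate 2 was left out (0.09, adjusted p = 0.026, both times), and with rescaled or quantile-normalized libraries.

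**Figure D1:**
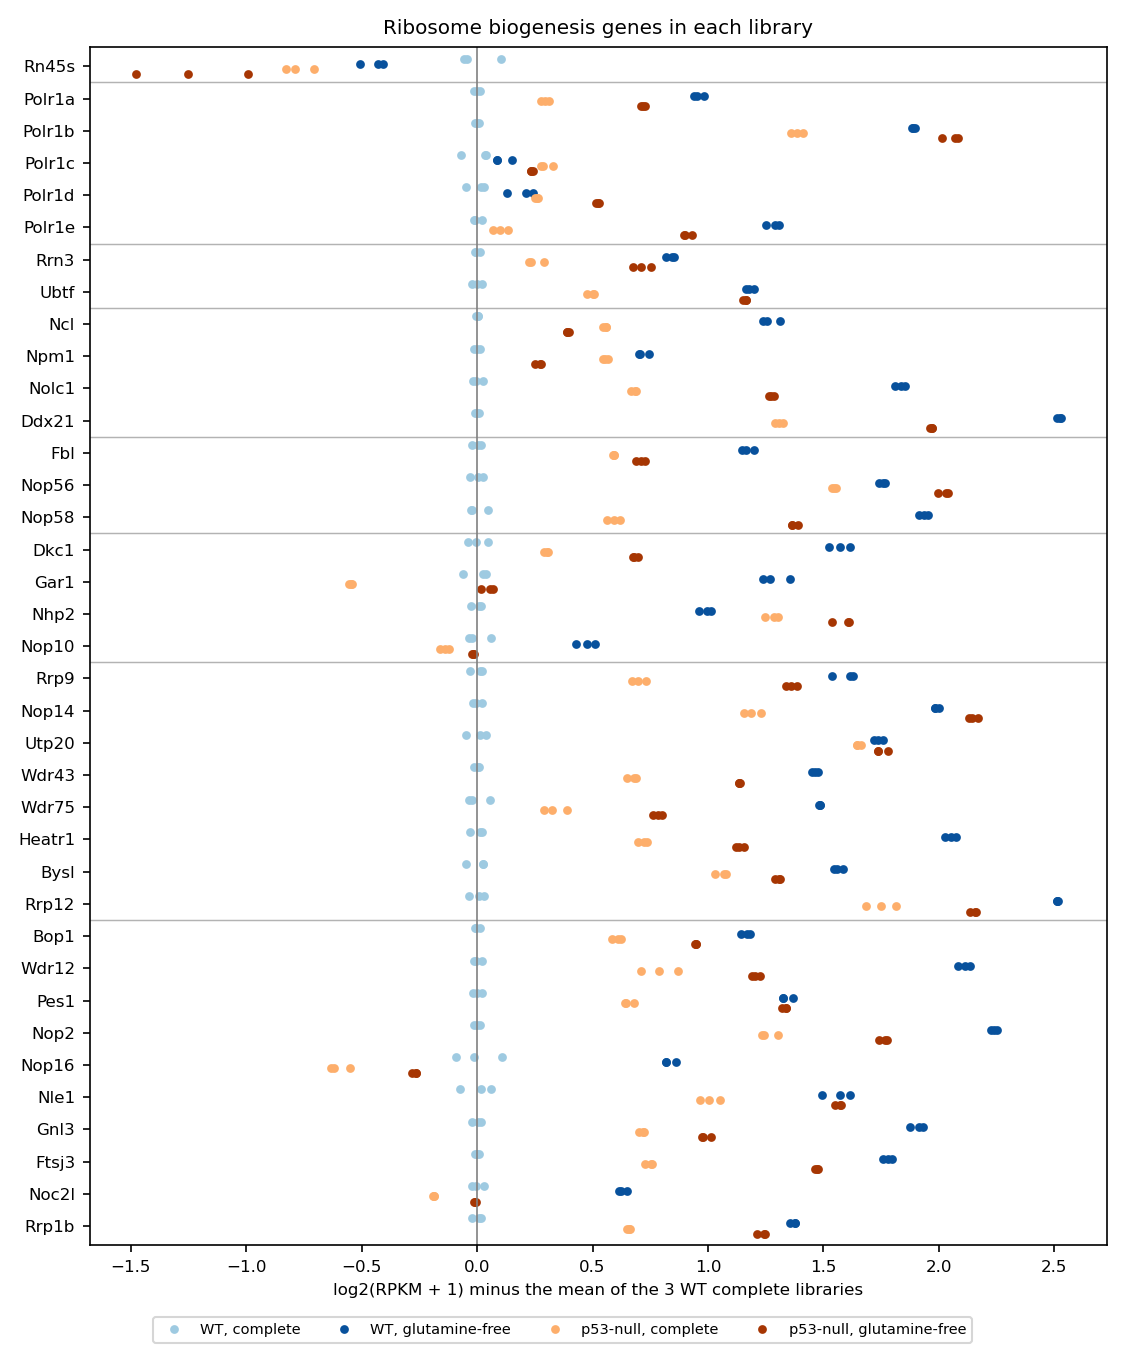
Each point is 1 library, placed on the x axis at log2(RPKM + 1) minus the mean of the 3 WT complete libraries, for the 37 genes on the y axis. Colours give the 4 groups, and grey lines separate the roles in the order of the text. WT complete (light blue) is the lowest group without overlap for 32 genes, and WT glutamine-free (dark blue) is the highest for 26.

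**Figure D2:**
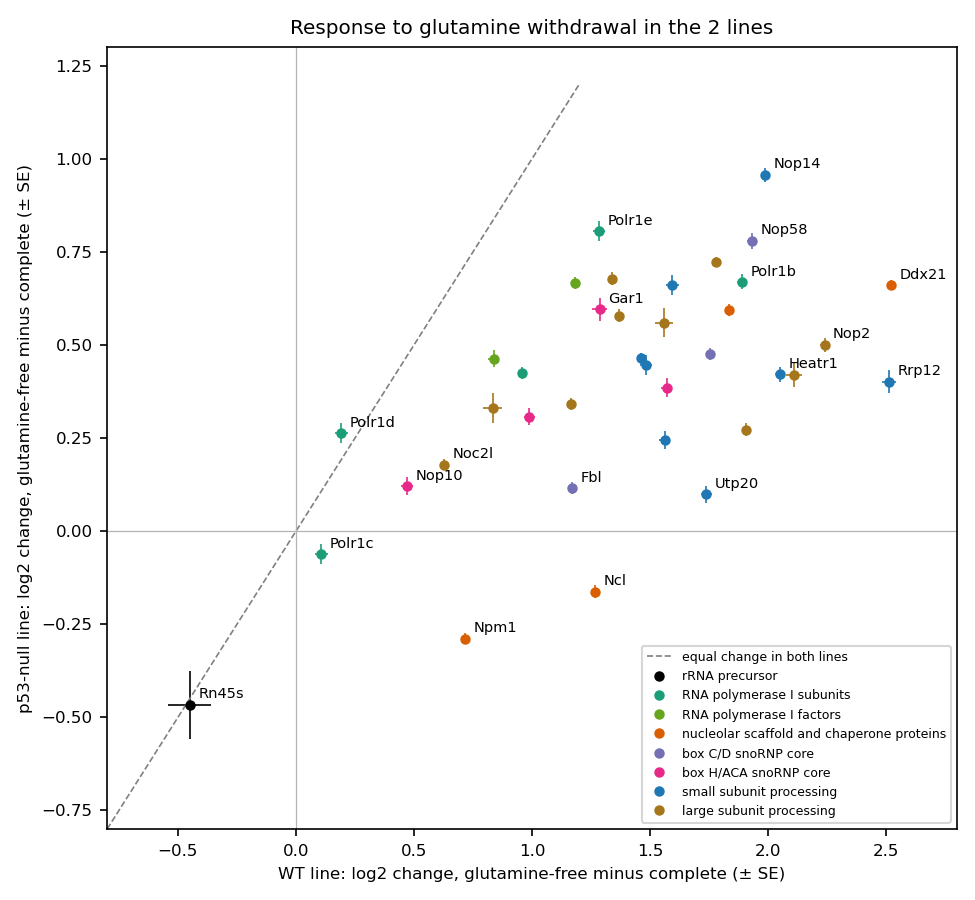
The x axis gives each gene's log2 change on glutamine withdrawal in WT cells and the y axis that in p53-null cells, with bars of 1 SE and a dashed line of equal change. Of the 36 coding genes, 35 lie to the right of the line, Polr1d lies to its left, and Rn45s is at the lower left with a fall of 0.45 and 0.47.

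Rn45s is the entry for the ribosomal RNA precursor, whose sequence also holds the mature ribosomal RNAs, so its value does not separate new precursor from mature RNA. Ribosomal RNA lacks a poly(A) tail, and the library kit named in the labels is one that selects polyadenylated RNA. It was 5198, 5156 and 5761 RPKM in the WT complete libraries and 3769, 4042 and 3982 RPKM in the WT glutamine-free libraries. In p53-null cells it was 3105, 3021 and 3285 RPKM in complete and 2697, 2250 and 1926 RPKM in glutamine-free medium. The 4 groups did not overlap: WT complete was highest and p53-null glutamine-free was lowest.

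The log2 change of Rn45s on withdrawal was -0.45 ± 0.091 (SE) in WT and -0.47 ± 0.091 in p53-null cells (adjusted p = 4.2e-04 and 3.8e-04, limma). Between lines, p53-null minus WT, it was -0.77 ± 0.091 with glutamine (adjusted p = 2.8e-06) and -0.79 ± 0.091 without it (adjusted p = 2.3e-06). Permuting the libraries exactly, two-sided, gave p = 0.1 in each of the 4 comparisons, which is as low as 3 against 3 can go. The spread of Rn45s within a group was 3.65 to 16.9% of the mean, against a median of 1.46% for the 36 coding genes. With quantile normalization, which sets the highest gene of each library to one value, the change became 0 in WT and 0.13 in p53-null cells. The change of 0 in WT cells is set by rank and does not speak to the direction of Rn45s there. The value of 0.13 in p53-null cells (adjusted p = 0.13, limma) is not such a tie, so the fall there was lost with this scaling.

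Replication-dependent histone genes, most of whose mRNAs also lack a poly(A) tail, moved in the same libraries. The summed level of 56 such genes was 78.04 to 91.3 RPKM in WT complete, 30.0 to 30.6 in WT glutamine-free, 17.5 to 29.7 in p53-null complete and 4.50 to 6.19 RPKM in p53-null glutamine-free libraries. Of the 17 that were tested, 15 fell in WT cells on withdrawal, against a background of 44.0% of tested genes, and 8 in p53-null cells, against 32.0%, and none rose. The part of RNA selection in the change of Rn45s was not tested.

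**Figure D3:**
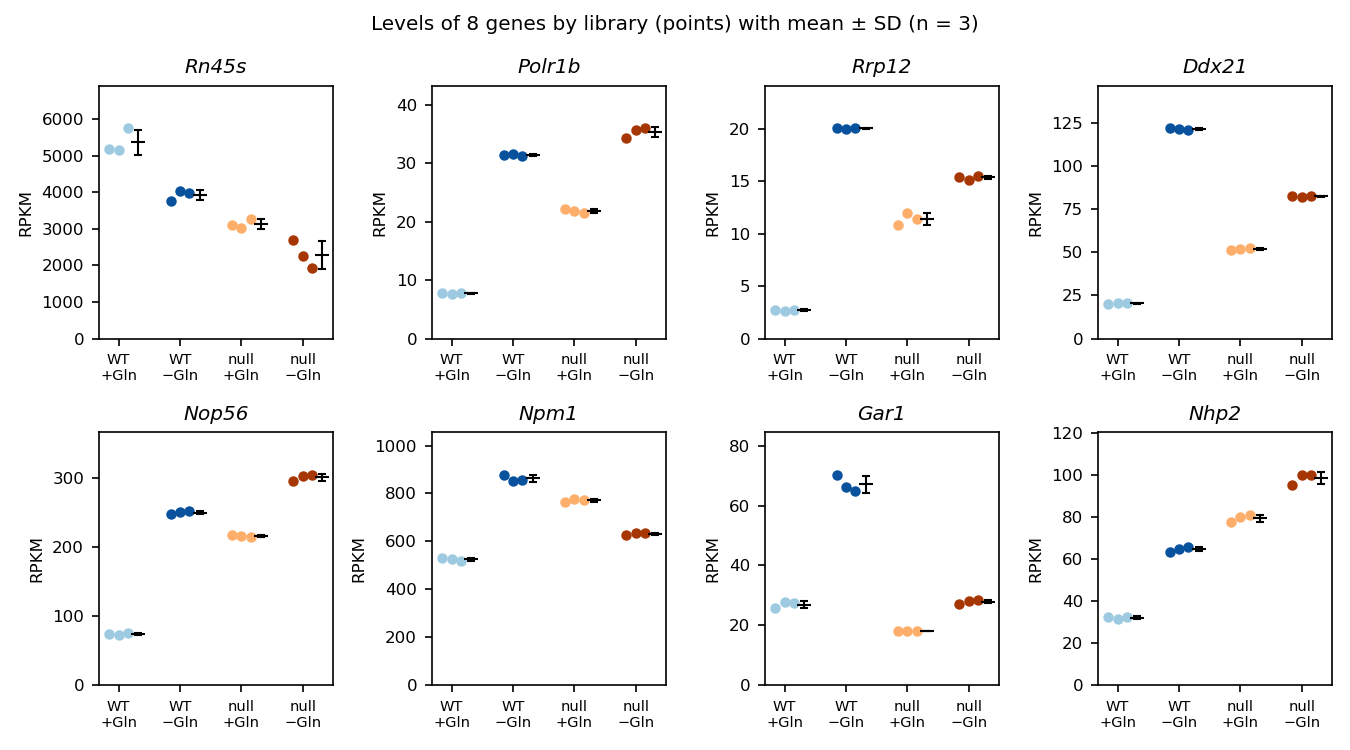
Points are single libraries and bars are mean ± SD (n = 3) in RPKM on linear axes from 0, for WT and p53-null cells in complete (+Gln) and glutamine-free (−Gln) medium. Rn45s falls in both lines, but not with quantile normalization, where its log2 change is 0 in WT and 0.13 in p53-null cells. Rrp12 and Ddx21 peak in WT glutamine-free libraries. Npm1 rises in WT and falls in p53-null cells (the latter not with quantile normalization). Gar1 and Nhp2 differ between the lines in opposite directions.

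Polr1a, Polr1b and Polr1e, which encode subunits found only in RNA polymerase I, rose in both lines. Polr1b, which encodes one of the 2 large catalytic subunits (chromosome 2, 129100995 to 129126594, plus strand), was 7.79, 7.69 and 7.73 RPKM in WT complete and 31.3, 31.5 and 31.2 RPKM in WT glutamine-free libraries. The p53-null libraries held 22.2, 21.8 and 21.4 RPKM in complete and 34.3, 35.7 and 36.0 RPKM in glutamine-free medium. The 4 groups did not overlap, and the p53-null complete libraries already stood at 2.82 times the WT complete mean. The log2 change was 1.89 ± 0.02 in WT and 0.67 ± 0.02 in p53-null cells (adjusted p = 7.6e-17 and 7.9e-12).

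Polr1a, the other large subunit, went from 25.6 ± 0.225 to 50.7 ± 0.817 RPKM (SD, n = 3) in WT and from 31.7 ± 0.401 to 42.8 ± 0.272 RPKM in p53-null cells. Polr1e, which encodes a subunit of the dimer that helps the enzyme start, went from 3.52 ± 0.0613 to 10.004 ± 0.225 RPKM in WT and from 3.85 ± 0.11 to 7.48 ± 0.109 RPKM in p53-null cells. Polr1c and Polr1d encode a pair of subunits that RNA polymerases I and III share. Polr1c was 41.9, 41.7 and 38.8 RPKM in WT complete and 43.4, 43.3 and 45.4 RPKM in WT glutamine-free libraries, a rise of 0.11 ± 0.028 on the log2 scale (adjusted p = 0.0024) that became -0.01 with quantile normalization. In p53-null cells its change was -0.06 ± 0.028 (adjusted p = 0.057). Polr1d was 41.5, 43.9 and 43.5 RPKM in WT complete and 47.0, 50.9 and 49.8 RPKM in WT glutamine-free libraries, and 51.3, 51.8 and 51.6 against 61.7, 62.4 and 62.1 RPKM in p53-null cells. These 2 shared subunits had the smallest rises in WT cells of the 36 coding genes.

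Other subunits of the enzyme were looked up after these values were seen. Twistnb and Cd3eap, 2 further subunits found only in RNA polymerase I, rose in WT cells from 6.46 ± 0.304 to 15.7 ± 0.241 RPKM and from 4.03 ± 0.392 to 11.98 ± 0.545 RPKM. Znrd1, a small subunit of the same enzyme that is not shared either, fell in WT cells from 23.7 ± 0.462 to 17.0 ± 0.579 RPKM. In p53-null cells Znrd1 was called lower too, by 0.08 ± 0.027 on the log2 scale (SE, adjusted p = 0.013, limma). Twistnb and Cd3eap rose there, by 0.74 and 0.63. Polr2f, Polr2h and Polr2k, subunits common to the nuclear RNA polymerases, rose in WT cells by 0.71, 1.19 and 0.76 on the log2 scale. Of the same kind, Polr2e fell by 0.21 and Polr2l rose by 0.14 ± 0.064 (SE, adjusted p = 0.048, limma). The WT libraries of Polr2l overlapped between the media. Among the RNA polymerase I subunits named here, Polr2e was thus the only shared one that fell in WT cells, and Znrd1 the only other.

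Rrn3 (chromosome 16, 13780708 to 13814839, plus strand) encodes the factor that brings the polymerase to the ribosomal DNA promoter and its promoter holds the 2 E-boxes printed above. It was 18.1, 18.3 and 18.0 RPKM in WT complete and 33.5, 32.8 and 33.3 RPKM in WT glutamine-free libraries. Its level in p53-null cells was 21.5, 22.4 and 21.4 RPKM in complete and 31.2, 29.6 and 30.3 RPKM in glutamine-free medium. Ubtf, which encodes the factor that coats active ribosomal DNA, ended close together in both lines without glutamine, at 40.8 to 41.8 RPKM in the WT libraries and 40.3 to 40.8 RPKM in the p53-null libraries. It started from 17.6 ± 0.267 and 25.3 ± 0.271 RPKM in complete medium. The difference between lines in glutamine-free medium was -0.02 ± 0.016 (adjusted p = 0.25), and 0.13 with libraries rescaled to one sum of RPKM.

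Transcripts of the abundant nucleolar proteins, Npm1 and Ncl, moved in opposite directions in WT and p53-null cells. Npm1, which encodes the nucleolar chaperone nucleophosmin and was the highest of the coding genes in each group (chromosome 11, 33152287 to 33163206, minus strand), was 530, 525 and 519 RPKM in WT complete and 879, 854 and 857 RPKM in WT glutamine-free libraries. p53-null cells held 765, 777 and 771 RPKM in complete and 625, 635 and 634 RPKM in glutamine-free medium. It rose by 0.72 ± 0.014 in WT and fell by 0.29 ± 0.014 in p53-null cells on the log2 scale (adjusted p = 2.3e-14 and 7.1e-10), and with quantile normalization the change in p53-null cells became 0.07. Processed pseudogenes of Npm1 are known, and how reads shared with them were counted is not given in the sources used here.

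Ncl, which encodes nucleolin, an RNA-binding protein of ribosomal RNA transcription and folding, was 89.9, 89.9 and 89.3 RPKM in WT complete and 224, 213 and 215 RPKM in WT glutamine-free libraries. In p53-null cells it was 131, 133 and 133 RPKM in complete and 118, 119 and 118 RPKM in glutamine-free medium, a fall of 0.16 ± 0.017 on the log2 scale (adjusted p = 1.1e-06). Npm1 and Ncl were the only coding genes of the 36 called lower on withdrawal in p53-null cells. Polr1c was also called lower there in a fit on the p53-null libraries alone (-0.06), with median centring (-0.17) and with quantile normalization (-0.18), and Utp20 with the last of these (-0.06). Nolc1, which encodes a chaperone of snoRNPs, rose in both lines, from 32.0 ± 0.503 to 117 ± 1.83 RPKM in WT and from 51.9 ± 0.403 to 78.9 ± 0.56 RPKM in p53-null cells.

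Ddx21, an RNA helicase of ribosomal RNA transcription and processing (chromosome 10, 62580251 to 62602281, minus strand), had the largest rise of the 37 in WT cells on the log2(RPKM + 1) scale, while in mean RPKM or with a pseudocount of 0.1 Rrp12 rose more. It was 20.2, 20.4 and 20.5 RPKM in complete and 122, 122 and 121 RPKM in glutamine-free WT libraries, 5.97-fold in mean RPKM and 2.52 ± 0.013 on the log2 scale (adjusted p = 2.6e-19). The p53-null libraries held 51.2, 51.9 and 52.4 RPKM in complete and 82.7, 82.2 and 82.7 RPKM in glutamine-free medium. Its response was smaller there by 1.86 ± 0.018 on the log2 scale (adjusted p = 4e-16).

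Box C/D snoRNPs add methyl groups to ribosomal RNA, with Fbl as the methyltransferase and Nop56 and Nop58 as the paired core proteins. Nop56 (chromosome 2, 130274430 to 130279313, plus strand) was 73.4, 71.7 and 74.6 RPKM in WT complete and 247, 250 and 251 RPKM in WT glutamine-free libraries. Its level in p53-null cells was 217, 216 and 215 RPKM in complete and 295, 302 and 304 RPKM in glutamine-free medium, so each p53-null glutamine-free library was above every other library. Nop58 was highest in WT glutamine-free libraries instead, at 160, 162 and 164 RPKM, against 109, 109 and 111 RPKM in p53-null glutamine-free libraries. In complete medium it was 41.7 ± 1.21 RPKM in WT and 63.3 ± 1.29 RPKM in p53-null cells.

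Fbl went from 51.3 ± 0.698 to 117 ± 2.08 RPKM in WT and from 77.8 ± 0.221 to 84.4 ± 1.18 RPKM in p53-null cells. The latter rise of 0.12 ± 0.016 (adjusted p = 2.1e-05) was 0.01 with median centring. Mean Nop56 was above mean Nop58 and mean Fbl in each group, on a scale per length.

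Box H/ACA snoRNPs turn uridine into pseudouridine, with Dkc1 as the enzyme and Gar1, Nhp2 and Nop10 as its partners. All 4 rose in both lines on withdrawal, but the lines differed in opposite directions. Gar1 (chromosome 3, 129824912 to 129831396, minus strand) was 25.7, 27.6 and 27.4 RPKM in WT complete and 70.4, 66.2 and 64.8 RPKM in WT glutamine-free libraries. p53-null cells held 18.2, 18.1 and 18.0 RPKM in complete and 27.2, 28.0 and 28.3 RPKM in glutamine-free medium, lower than in WT cells in both media. Nhp2 was higher in p53-null cells in both media, at 77.7, 79.8 and 80.8 RPKM in complete and 95.3 to 100.3 RPKM in glutamine-free libraries, against 32.6, 31.5 and 32.4 RPKM and 63.6, 65.0 and 65.9 RPKM in WT cells.

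The log2 difference between lines, p53-null minus WT, was -0.55 ± 0.031 for Gar1 and 1.28 ± 0.023 for Nhp2 in complete medium (adjusted p = 1.3e-09 and 9.6e-15). Without glutamine it was -1.24 ± 0.031 for Gar1 (adjusted p = 2.9e-13) and 0.60 ± 0.023 for Nhp2 (adjusted p = 2.3e-11). Dkc1 was higher in the p53-null line in complete medium, 33.6 ± 0.224 against 27.2 ± 0.85 RPKM, and lower without glutamine, 44.3 ± 0.358 against 82.6 ± 2.72 RPKM. Nop10 was 57.0 ± 0.785 against 62.9 ± 2.27 RPKM in complete medium, a difference of -0.14 ± 0.025 (adjusted p = 1.5e-04) that was not called with libraries rescaled to one sum (adjusted p = 0.17). In glutamine-free medium it was 62.0 ± 0.27 against 87.5 ± 2.49 RPKM.

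The 8 genes of small subunit processing each rose at least 2-fold in WT cells and rose by less in p53-null cells, with a median log2 change of 1.67 and 0.43. Rrp12, which encodes a maturation and export factor of the small subunit (chromosome 19, 41862851 to 41896173, minus strand), had the largest fold change in mean RPKM of the 37, 7.46-fold. It was 2.70, 2.59 and 2.76 RPKM in WT complete and 20.03, 20.01 and 20.06 RPKM in WT glutamine-free libraries. In p53-null cells it was 10.9, 11.9 and 11.4 RPKM in complete and 15.4, 15.2 and 15.5 RPKM in glutamine-free medium. Its responses differed by -2.11 ± 0.042 on the log2 scale (adjusted p = 1.1e-13), the widest gap among the 37.

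Heatr1, a scaffold of the small subunit processome that is also needed for ribosomal RNA transcription, was 10.7, 10.7 and 10.3 RPKM in WT complete and 46.2, 47.0 and 47.7 RPKM in WT glutamine-free libraries. In p53-null cells it went from 18.0 ± 0.273 to 24.5 ± 0.298 RPKM. Wdr43 and Wdr75, WD-repeat proteins of the same early particle, rose in WT cells from 30.2 ± 0.247 to 85.1 ± 0.825 and from 24.8 ± 0.876 to 71.1 ± 0.122 RPKM. In p53-null cells they went from 48.8 ± 0.709 to 67.6 ± 0.182 and from 31.6 ± 1.15 to 43.4 ± 0.586 RPKM.

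Utp20, a large scaffold protein, rose much less in p53-null than in WT cells. It was 7.22, 7.73 and 7.59 RPKM in WT complete and 27.0, 27.8 and 27.4 RPKM in WT glutamine-free libraries, but 25.6, 25.6 and 25.9 against 27.3, 27.4 and 28.2 RPKM in p53-null cells. The change in p53-null cells was 0.10 ± 0.023 (adjusted p = 0.0014), and -0.01 with median centring. Nop14, a processome factor, rose most of the 37 in p53-null cells, from 47.1, 48.1 and 49.5 RPKM to 93.3, 94.3 and 95.9 RPKM (log2 change 0.96 ± 0.019, adjusted p = 2.4e-13), and in WT cells went from 20.6 ± 0.307 to 84.5 ± 0.667 RPKM. Rrp9, a protein of the U3 snoRNP, and Bysl, a late factor of the small subunit, rose in WT cells from 9.52 ± 0.202 to 30.8 ± 1.08 and from 6.49 ± 0.223 to 21.1 ± 0.32 RPKM. In p53-null cells they went from 16.1 ± 0.373 to 26.0 ± 0.42 and from 14.6 ± 0.263 to 17.5 ± 0.13 RPKM.

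The 10 genes of large subunit processing all rose in both lines, 8 of them at least 2-fold in WT and none in p53-null cells, with a median log2 change of 1.46 and 0.46. Nop2, a methyltransferase of large-subunit ribosomal RNA with the E-box printed above (chromosome 6, 125131909 to 125144753, plus strand), was 22.6, 22.3 and 22.8 RPKM in WT complete and 110.2, 109.2 and 111.2 RPKM in WT glutamine-free libraries. The p53-null libraries held 57.1, 54.7 and 54.4 RPKM in complete and 77.7, 79.6 and 79.1 RPKM in glutamine-free medium. Gnl3, the GTPase nucleostemin, was 36.7, 37.1 and 36.1 RPKM in WT complete and 143, 137 and 141 RPKM in WT glutamine-free libraries, while in p53-null cells it went from 60.7 ± 0.519 to 73.6 ± 1.1 RPKM.

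Pes1, Bop1 and Wdr12 encode the 3 proteins of the PeBoW complex, which processes the large-subunit precursor. Wdr12 was 7.75, 7.58 and 7.53 RPKM in WT complete and 35.5, 36.9 and 36.3 RPKM in WT glutamine-free libraries, 4.75-fold in mean RPKM. Bop1 rose 2.30-fold and Pes1 2.58-fold in the same cells, to 50.7 ± 0.745 and 74.7 ± 1.35 RPKM. In p53-null cells the order was another one: Pes1 rose 1.61-fold, Wdr12 1.36-fold and Bop1 1.27-fold. Pes1 then reached 73.8, 74.6 and 74.7 RPKM, within the WT range of 73.9 to 76.2 RPKM but for 1 library, while Wdr12 reached 18.9 ± 0.253 RPKM, 0.522 of the WT mean.

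Ftsj3, a processing factor of both subunits' precursors, and Rrp1b, a nucleolar scaffold protein, went in WT cells from 33.4 ± 0.245 to 117 ± 1.61 and from 9.72 ± 0.153 to 26.7 ± 0.236 RPKM. In p53-null cells they went from 56.7 ± 0.626 to 94.2 ± 0.47 and from 15.9 ± 0.0801 to 24.2 ± 0.354 RPKM. Nle1, a factor that is released late in large subunit assembly, reached the same range without glutamine in both lines, 16.8 to 18.3 RPKM in the WT libraries and 17.4 to 17.8 RPKM in the p53-null libraries, from 5.31 ± 0.302 and 11.7 ± 0.373 RPKM with glutamine. Noc2l and Nop16 had smaller rises. Noc2l, which is also known as a binding partner of p53, went from 56.6 ± 1.02 to 87.9 ± 1.12 RPKM in WT and from 49.5 ± 0.0706 to 56.2 ± 0.204 RPKM in p53-null cells. Of its exon length 20.9% lies under Samd11 on the other strand, the largest such overlap of the 36, and the kit does not mark strand. Nop16 was 22.5, 25.9 and 23.8 RPKM in WT complete and 15.3, 15.1 and 16.1 RPKM in p53-null complete libraries, with no overlap, and reached 43.6 ± 0.785 and 19.8 ± 0.131 RPKM without glutamine.

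In complete medium most of these genes were higher in the p53-null line than in the WT line. Of the 37, 32 were called higher and 5 lower, against a background of 48.4% higher and 42.5% lower, 90.9% in all, and the median log2 difference was 0.65 against 0.05 over all tested genes. The 5 that were lower were Rn45s, Nop16, Gar1, Noc2l and Nop10. The largest differences were of Rrp12, at 1.75 ± 0.03, Utp20, at 1.65 ± 0.023, Nop56, at 1.55 ± 0.016, and Polr1b, at 1.39 ± 0.02 (adjusted p = 5.5e-15, 8.4e-16, 5.9e-17 and 1.3e-15). At least 2-fold differences were called for 10 genes upward and for 0 downward, against 9.14% and 10.9% of tested genes.

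In glutamine-free medium the order of the lines turned for most of them. Of the 37, 27 were called lower in p53-null than in WT cells and 6 higher, against a background of 40.0% lower and 51.4% higher, 91.4% in all, and the median log2 difference was -0.36 against 0.10. Rn45s, Nop16, Gar1, Noc2l and Nop10 are among the 27 but did not turn, since they were lower in complete medium too. The share of all tested genes whose order turned is not given here, so turning is not shown to be particular to these genes. The 6 that were higher were Nhp2, Polr1d, Nop56, Polr1b, Nop14 and Polr1c. Utp20, Nle1, Pes1 and Ubtf were not called. The median of all tested genes moved to 0.23 when libraries were rescaled to one sum, and the calls then were 25 lower and 10 higher. With median centring they were 31 lower and 3 higher. The largest differences were of Gar1, at -1.24 ± 0.031, and Nop16, at -1.10 ± 0.04 (adjusted p = 2.9e-13 and 1.1e-11), the only ones of at least 2-fold, against 7.88% of tested genes, and 0 were 2-fold higher, against 10.7%. The 2 comparisons of lines and the 2 of medium share libraries, and their values are given side by side only.

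**Figure D4:**
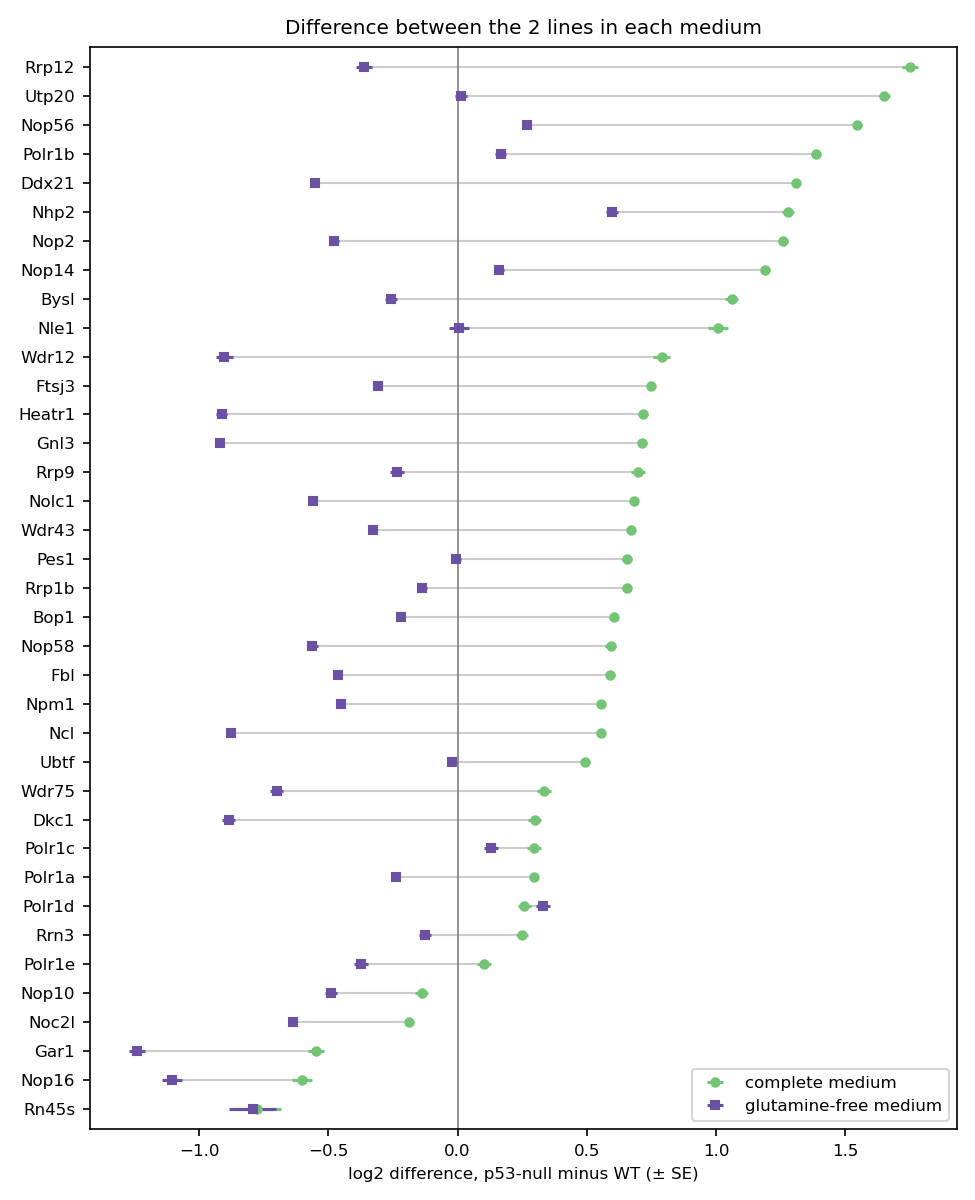
For each of the 37 genes the x axis gives the log2 difference, p53-null minus WT, in complete (circles) and glutamine-free medium (squares), with bars of 1 SE. In complete medium 32 genes lie right of 0 and in glutamine-free medium 27 are called to its left; for Rn45s the symbols coincide near -0.8.

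Across the 12 libraries WT complete was the lowest group, with no overlap with any other library, for 32 of the 37 genes, as it was for 28.1% of tested genes. WT glutamine-free was the highest group without overlap for 26, against 22.4%, and both held for 22, against 7.30%. In 5 genes, Polr1b, Polr1d, Nop56, Nhp2 and Nop14, the p53-null glutamine-free libraries were highest, against 24.2% of tested genes. Polr1c was highest in p53-null complete libraries, against 13.3%, and Rn45s in WT complete libraries, against 24.4%. For Ubtf, Utp20, Pes1 and Nle1 no single group was above all others.

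Myc, which encodes the transcription factor named above, rose in both lines and was lower in the p53-null line in both media. It went from 60.7 ± 1.13 to 344 ± 2.32 RPKM in WT and from 37.1 ± 1.17 to 113 ± 1.11 RPKM in p53-null cells, log2 changes of 2.49 ± 0.021 and 1.58 ± 0.021 (adjusted p = 9.2e-18 and 6.7e-15). In complete medium it was lower in the p53-null line, at a log2 difference of -0.70 ± 0.021 (adjusted p = 1.4e-12), while 32 of the 37 genes were higher there. Without glutamine the difference was -1.60 ± 0.021 (adjusted p = 5.3e-16), in the same direction as 27 of the 37 genes. Its part in their levels was not tested.

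Further genes of the pathway were counted from 5 lists, of which 173 of 185 symbols were tested. Of the 173, 154 rose and 13 fell in the WT line (median 0.97 on the log2 scale), and 151 rose and 13 fell in the p53-null line (median 0.37). The difference of the responses was called lower for 148 and higher for 14, with a median of -0.60. Between lines 134 were higher and 28 lower in p53-null cells in complete medium, and 61 higher and 98 lower without glutamine. Over all tested genes the shares called higher and lower were 46.0% and 44.0% in WT and 50.0% and 32.0% in p53-null cells, the background for the counts of each list that follow. They were 46.4% and 38.4% for the difference of the responses, 48.4% and 42.5% between lines in complete medium, and 51.4% and 40.0% without glutamine. Small subunit factors other than the 8 above rose in 46 of 49 and fell in 2 in WT cells, median log2 change 1.23, and rose in 47 and fell in 1 in p53-null cells, median 0.48. Pno1, which escorts the small subunit, went from 15.6 ± 0.438 to 80.3 ± 3.05 RPKM in WT cells and Imp4, a protein of the U3 snoRNP, from 12.6 ± 0.179 to 58.8 ± 0.35 RPKM. Utp11l and Rrp7a were the 2 that fell, from 68.0 ± 2.93 to 49.4 ± 2.45 RPKM and from 33.4 ± 0.883 to 26.3 ± 0.501 RPKM. In p53-null cells the largest rises were of Ngdn, from 28.1 ± 0.885 to 52.0 ± 0.614 RPKM, and Rcl1, from 19.9 ± 0.197 to 35.6 ± 0.686 RPKM. The 1 that fell there was Tbl3, from 35.0 ± 0.381 to 29.1 ± 0.648 RPKM, of which 37.3% of the exon length lies under Noxo1 on the other strand.

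Large subunit factors rose in 56 of 58 and fell in 1 in WT cells, median 1.17, and rose in 53 and fell in 4 in p53-null cells, median 0.36. Nol8 went from 5.18 ± 0.136 to 39.5 ± 0.293 RPKM in WT cells and Tma16 from 10.4 ± 0.39 to 62.6 ± 1.38 RPKM. Gltscr2 was the 1 that fell, from 30.3 ± 1.5 to 23.5 ± 0.855 RPKM. In p53-null cells Tma16 went from 18.0 ± 0.0979 to 36.2 ± 1.24 RPKM and Zfp622 from 12.1 ± 0.445 to 23.2 ± 0.507 RPKM. Mybbp1a, which encodes a nucleolar protein that binds MYB and p53, fell in p53-null cells from 174 ± 2.19 to 152 ± 0.604 RPKM and rose in WT cells from 73.2 ± 0.576 to 117 ± 1.69 RPKM. Gltscr2 fell there too, from 34.1 ± 0.547 to 29.8 ± 0.763 RPKM.

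The RNA exosome, which trims precursor ends, rose in 16 of 17 in WT cells, median 0.87, and in 14 of 17 in p53-null cells, median 0.35. Exosc1 went from 10.8 ± 0.439 to 41.8 ± 0.322 RPKM in WT cells. Exosc5 went from 6.55 ± 0.143 to 23.2 ± 1.21 RPKM in WT cells and was the 1 that fell in p53-null cells, from 8.41 ± 0.814 to 7.23 ± 0.168 RPKM. Exosc7 and Exosc2 had the largest rises in p53-null cells, from 18.6 ± 0.906 to 30.8 ± 1.41 and from 38.7 ± 0.326 to 59.9 ± 0.893 RPKM.

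Other snoRNP proteins and assembly factors rose in 9 of 13 and fell in 3 in WT cells, median 0.51, and rose in 10 and fell in 2 in p53-null cells, median 0.37. Znhit6, an assembly factor of box C/D snoRNPs, went from 6.80 ± 0.116 to 22.6 ± 0.415 RPKM in WT and from 9.44 ± 0.201 to 16.0 ± 0.407 RPKM in p53-null cells. Tgs1 went from 13.2 ± 0.157 to 32.5 ± 0.484 RPKM in WT cells. Coil, the marker of Cajal bodies, fell in both lines, from 3.84 ± 0.019 to 2.68 ± 0.149 and from 4.13 ± 0.017 to 3.04 ± 0.146 RPKM. Rpap3 fell by 0.10 ± 0.029 in WT cells. Pih1d1 fell in p53-null cells from 16.2 ± 0.572 to 9.33 ± 0.332 RPKM, and Wrap53, the next gene to Trp53 on chromosome 11, rose there from 7.86 ± 0.336 to 11.7 ± 0.333 RPKM.

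Further genes of RNA polymerases I and III, their factors and ribosomal DNA chromatin rose in 27 of 36 in each line and fell in 7 in WT and 5 in p53-null cells, with medians of 0.68 and 0.32. Taf1a, a subunit of the factor that selects the ribosomal DNA promoter, went from 3.01 ± 0.0193 to 13.2 ± 0.359 RPKM in WT and from 4.82 ± 0.163 to 12.5 ± 0.358 RPKM in p53-null cells. Polr3d, a subunit gene of RNA polymerase III, rose in WT cells from 9.24 ± 0.321 to 30.0 ± 0.651 RPKM. Maf1, which encodes the repressor of RNA polymerase III, fell in WT cells from 36.1 ± 0.385 to 19.3 ± 0.323 RPKM and rose in p53-null cells from 20.8 ± 0.222 to 25.2 ± 0.388 RPKM. Polr3gl fell in WT cells from 13.7 ± 0.376 to 6.76 ± 0.037 RPKM. Gtf3c5 and Gtf3c1, subunits of an RNA polymerase III initiation factor, had the largest falls in p53-null cells, by 0.59 and 0.37 on the log2 scale.

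**Figure D5:**
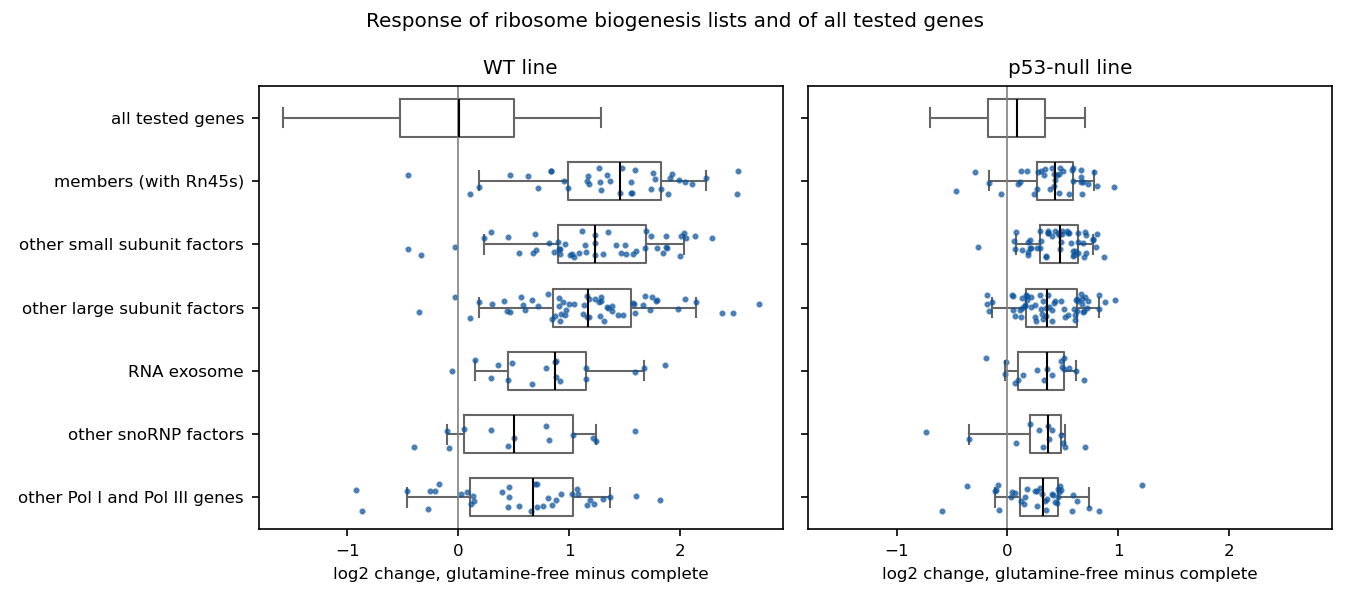
Boxes give the quartiles and median of the log2 change on glutamine withdrawal, whiskers the central 90%, and points single genes, for all tested genes (box only), the 37 genes (members) and 5 further lists in each line, on one x axis. The medians of the 37 genes are 1.46 in WT and 0.43 in p53-null cells, against 0.01 and 0.08 for all tested genes.

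The 36 coding genes lie on many chromosomes, and 6 of them, Ncl, Nop56, Nop58, Dkc1, Wdr43 and Gnl3, hold 19 annotated snoRNA genes on their own strand in GENCODE M21. That is 16.7% of the 36, against 2.29% of 11149 tested genes with an annotation. snoRNAs cut from introns have no poly(A) tail and were not measured as such. In WT cells the 6 host genes rose by 1.27 to 1.93 on the log2 scale, within the range of the other coding genes, 0.11 to 2.52.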

How the data were processed

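RNA-seq was analysed from 12 libraries of 2 mouse lines, 4 groups of 3. The values are RPKM as deposited by the authors in 1 table. The submitters' processing notes name CASAVA 1.8, HISAT2 2.0.4, Partek and mm10; how reads were assigned to genes is not given in the sources used here. Reads could not be recovered as whole numbers, so no count model was used.

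Genes that reached 1 RPKM in 3 or more of the libraries were tested on log2(RPKM + 1) with limma 3.58.1 (R 4.3.3, mean-variance trend, 1 fit over the 4 groups, 5 comparisons), with Benjamini-Hochberg adjustment over all of them and calls at an adjusted p under 0.05. The code was tested on simulated data. Rn45s was also tested by exact permutation (scipy 1.17.1). At least 2-fold means a log2 difference of 1 or more on that scale.

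The members, the 5 pathway lists, the histone list and the fibroblast, epithelial, blood and endothelial markers were chosen with earlier results of these data known. Named were all 37 genes, Trp53, Myc and, from each pathway list, the 2 called genes that rose most and the 2 that fell most in each line. One gene that this rule names is not reported here. Replicate numbers were not used to pair libraries. Coordinates and overlaps are from GENCODE M21 (GRCm38), and promoters from RefSeq on GRCm38.p6. Alternatives tried were another pseudocount, no filter, no trend, 4 other scalings, a replicate block, the groups compared alone, and leaving out each library.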

Additional observations from a re-analysis of the deposited data

Results flagged for a closer look

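The response to glutamine withdrawal differed between the lines, by the test of the difference itself (limma, adjusted p under 0.05), for 35 of the 37 genes and for Myc, beside 84.9% of all tested genes. Each value is the p53-null response minus the WT response on the log2 scale. Among genes of RNA polymerase I it was -0.53 for Polr1a, -1.22 for Polr1b, -0.17 for Polr1c, -0.48 for Polr1e, -0.38 for Rrn3 and -0.51 for Ubtf. Nucleolar scaffold and chaperone genes had -1.43 for Ncl, -1.01 for Npm1, -1.24 for Nolc1 and -1.86 for Ddx21. In the box C/D core the difference was -1.05 for Fbl, -1.28 for Nop56 and -1.15 for Nop58, and in the box H/ACA core -1.18 for Dkc1, -0.69 for Gar1, -0.68 for Nhp2 and -0.35 for Nop10.

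Small subunit genes had -0.93 for Rrp9, -1.03 for Nop14, -1.64 for Utp20, -0.998 for Wdr43, -1.03 for Wdr75, -1.63 for Heatr1, -1.32 for Bysl and -2.11 for Rrp12. Large subunit genes had -0.82 for Bop1, -1.69 for Wdr12, -0.66 for Pes1, -1.74 for Nop2, -0.50 for Nop16, -1.0001 for Nle1, -1.63 for Gnl3, -1.05 for Ftsj3, -0.45 for Noc2l and -0.79 for Rrp1b. Myc had -0.90.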

How the results depend on the processing

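Of 2960 values of the 37 genes under the alternatives, 2918 kept their call, 19 reversed, 8 lost the call and 15 gained one. A reversal was a change of sign, or to 0, of a value called in the main fit or the alternative. A value called in neither was counted as kept even if its sign changed. A pseudocount of 0.1 RPKM, no filter and no trend gave no reversal and no lost or gained call. The median of the 37 stayed at 1.35 to 1.49 in WT, 0.30 to 0.45 in p53-null cells, 0.62 to 0.75 between lines in complete medium, -0.50 to -0.22 without glutamine and -1.11 to -0.90 for the difference of the responses.

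The 4 other scalings, all of which move every gene of a library, account for all reversals so counted, and the cause was not tested. With quantile normalization 0 genes were called lower in WT cells. The change of Rn45s became 0 in WT and 0.13 in p53-null cells, that of Polr1c in WT cells -0.012, and in p53-null cells that of Npm1 0.065 and of Utp20 -0.061. Between lines without glutamine Npm1 became 0.026 and Pes1 0.13. With libraries rescaled to one sum, 10 genes were called higher between lines without glutamine, and Rrn3 became 0.019, Ubtf 0.13, Pes1 0.14 and Rrp1b 0.0071. With Rn45s left out of that sum it was again 10, with Rrn3 at 0.013, Ubtf at 0.12, Pes1 at 0.13 and Rrp1b at 0.0010. Median centring gave 3 called higher, with Polr1c at -0.0077, Utp20 at -0.12 and Nle1 at -0.13, and Utp20 in p53-null cells at -0.0061.

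The calls lost, beside the reversals, were Polr1d in WT cells with quantile normalization, Fbl and Nop10 in p53-null cells and Polr1b and Nop14 between lines without glutamine with median centring, and Nop10 between lines in complete medium with both rescalings and quantile normalization. A larger response in p53-null cells was called for 1 gene, Polr1d, after either rescaling or quantile normalization. The replicate block also gave 1 (Polr1d, 0.07, adjusted p = 0.038, limma) and moved no other count. Leaving out 1 library gave 0 to 1 such genes and changed no other count by 1.5 times. Same-numbered libraries correlated at -0.106 to 0.088 and others at -0.112 to 0.111, and 4 of 12 libraries correlated best with their own number. The files give no depth, so what depth limits could not be measured.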
